A study of Homo sapiens with 32 samples.

Results

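The BEX and TCEAL genes form a family of small neighbouring genes on the long arm of the human X chromosome. This account follows 10 of them, BEX1, BEX2, BEX3, BEX4, BEX5, TCEAL1, TCEAL3, TCEAL4, TCEAL8 and TCEAL9, out of 62703 gene identifiers in the deposited count tables. They were taken by symbol, and the set was chosen by the counts of BEX1, which were high in cells without IGF2BP1. BEX1 in that knockout, and every value of the same contrast in total and nuclear RNA, is therefore given as a description with no test.

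The cells were HEK293T, a human embryonic kidney line that carries the SV40 large T antigen. Poly(A) RNA of 4 genotypes was sequenced: a control line with a non-targeting guide, and knockouts of IGF2BP1, IGF2BP2 or IGF2BP3, each made with 3 guide RNAs on plasmids that also carry GFP. Each knockout was grown from 1 sorted GFP-positive cell, so the libraries of a knockout repeat 1 clone and p-values measure the spread between libraries of that clone. RNA came from whole cells (total), nuclei or cytoplasm. Total and nuclear RNA each had 4 control libraries and 2 libraries of every knockout. Cytoplasmic RNA had the same set with 4 libraries of the IGF2BP3 knockout. The labels name batches: the IGF2BP1 knockout shared batches 1 and 2 with control libraries, and the IGF2BP2 and IGF2BP3 knockouts shared batches 3 and 4. The other pair of cytoplasmic IGF2BP3 libraries was batch 5, which had no control.

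IGF2BP proteins bind messenger RNAs, many of them carrying methylated adenosines, and are known for stabilising their targets. The BEX (brain expressed X-linked) and TCEAL (transcription elongation factor A-like) genes encode short, largely disordered proteins found in placental mammals and abundant in brain. BEX1 and BEX3 bind the intracellular part of the p75 neurotrophin receptor, and BEX3 takes part in p75-mediated cell death. The TCEAL proteins resemble part of the elongation factor TFIIS, and TCEAL1 is known as a nuclear modulator of transcription.

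In GENCODE 29 on GRCh38 all 10 genes are protein-coding and lie on chromosome X. BEX5 (chrX:102153708-102156057, minus strand) lay apart, with its start site at −908 kb relative to that of BEX1 (chrX:103062651-103064240, minus strand). The other 8 had start sites within 564 kb of it: BEX4 (chrX:103215092-103217246, plus strand), TCEAL8 (chrX:103252995-103255203, minus), BEX2 (chrX:103309346-103311046, minus), TCEAL9 (chrX:103356489-103358462, plus), BEX3 (chrX:103376340-103378077, plus), TCEAL4 (chrX:103576231-103587736, plus), TCEAL3 (chrX:103607451-103629690, plus) and TCEAL1 (chrX:103628704-103630953, plus). The 30-base windows below show the shared feature of their promoters, read from RefSeq promoter sequences of GRCh38.p14 that run from 250 bases before a gene's start to 50 after it. Capitals mark CACGTG, the E-box letters known as a binding sequence of basic helix-loop-helix factors. TCEAL9 holds no CACGTG and is shown at the stretch that lines up with TCEAL8, all in lower case.
BEX1: acgcacggccctCACGTGaccgggagctgc
BEX3: acgcgcggccctCACGTGacccagagctgc
TCEAL1: acgcgcgtccctCACGTGaccaggagcctc
TCEAL8: tgacgcgactctCACGTGaccaggagtcga
TCEAL9: tgacgtagatctcatgtgaccaggagtcga
TCEAL3: tgacgcggcgctCACGTGacccgccgggcg
TCEAL4: ggctgcggcattCACGTGatctgcacgggc
BEX2: tgacaacagccaCACGTGatcggccaacac
BEX4: tgacaacagcccCACGTGaccggccaacac

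The BEX1 window is chrX:103064201-103064230 on the minus strand, and its motif begins 47 bases before the RefSeq start. The BEX3 window is chrX:103376479-103376508 on the plus strand, with the motif at the same distance of 47 bases. The other windows are chrX:103628907-103628936 (TCEAL1, plus), chrX:103255169-103255198 (TCEAL8, minus), chrX:103356457-103356486 (TCEAL9, plus), chrX:103607871-103607900 (TCEAL3, plus), chrX:103585493-103585522 (TCEAL4, plus), chrX:103310992-103311021 (BEX2, minus) and chrX:103215077-103215106 (BEX4, plus). CACGTG, which reads the same on both strands, was in 9 of the 15 windows of the 10 genes, against 7.26% of all 35116 promoter windows of that length. Counted by gene, 8 of the 10 had a window with it, against 8.77% of 27305 genes. BEX3 and TCEAL1 also have RefSeq starts whose windows hold no CACGTG. BEX5 and TCEAL9 had none. The longer TCACGTGA, which contains the first motif and also reads the same on both strands, was in 6 of the 10 genes against 1.18% of all genes. Both motifs were searched after the sequences had been seen. The promoters of BEX2 and BEX4 shared a run of 45 identical bases, those of BEX1 and BEX3 a run of 35, and those of TCEAL8 and TCEAL9 a run of 28, while the median longest run over 78 pairs of family promoters was 10. These matches describe letters in a window and were not tested as sites.

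The libraries held 13689067 to 26119480 counts. Below, a level is a normalized CPM, meaning counts scaled to a common library size with the scaling of the test (TMM, set within each RNA kind), and a call is an adjusted p under 0.05. A library labelled as total RNA of the IGF2BP1 knockout (replicate 2) and a library labelled as nuclear RNA of the same knockout (replicate 1) were identical in all 62703 identifiers. They were taken as 1 library deposited under both labels, and which RNA kind it holds could not be settled. The targeted gene was low in its own knockout: in total RNA, IGF2BP1 stood at 25.1 and 28 in its knockout against 423 to 500 in control, IGF2BP2 at 32.1 and 32.7 against 78.6 to 111, and IGF2BP3 at 39.9 and 40.9 against 85.4 to 92.2. IGF2BP1 itself stood at 305 to 347 in the IGF2BP2 and IGF2BP3 knockouts. Of 10 markers of HEK293T cells, 9 reached 1 CPM in control total RNA, and their sum was 1165 to 1188 in control, 821 to 906 in the IGF2BP1, 977 to 1021 in the IGF2BP2 and 630 to 635 in the IGF2BP3 knockout. Of 4 fibroblast markers 1 reached 1 CPM (COL1A1), with a summed level of 31.9 to 34.1 in control, 18.6 to 26.3, 33.6 to 34 and 64 to 64.3 in the 3 knockouts, and COL1A2 and DCN at 0 in control. Of 5 blood markers 1 reached 1 CPM, with sums of 2.02 to 2.61 in control and 4.43 to 4.97 in the IGF2BP3 knockout. HBB was at 0 in all 4 genotypes. The 3 endothelial and 3 hepatocyte markers stayed under 1 CPM each in total RNA. The part of these marker levels in the results below was not tested.

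Levels between genes were compared per kilobase of exon. In control total RNA BEX3 was highest at 271 ± 6.15 normalized CPM per kilobase (SD, n = 4). TCEAL8 (81.2 ± 2.98) and BEX4 (78.1 ± 8.49) came next, with overlapping libraries. BEX2 followed at 45.8 ± 3.81, ahead of TCEAL9 (39.4 ± 2.01) and TCEAL4 (37.6 ± 1.36), which overlapped. The annotated exons of TCEAL9 together cover its whole gene span of 1974 bases, so its place in each order per kilobase depends on that length. Before division by length, TCEAL9 stood above BEX2, with means of 77.7 against 53.8 normalized CPM. TCEAL1 stood at 19.8 ± 2.50. The lowest were BEX5 (3.98 ± 0.855) and BEX1 (3.36 ± 0.551), which overlapped, and TCEAL3 (1.37 ± 0.211). BEX1 was thus among the weakest members in control cells, stood among BEX2 and TCEAL9 in the IGF2BP1 knockout (56.7 ± 12.8, n = 2, its libraries overlapping both, and 1 of them the library with both labels) and was last in the IGF2BP2 (0.448 ± 0.502) and IGF2BP3 knockouts (0.149 ± 0.0889). The deposited FPKM values were not used for this order. The length they imply followed the whole gene span, introns included, for all 11666 genes with at least 100 counts in the first total RNA library (within 5% of 1 common ratio). For TCEAL3 that is a span of 22240 bases against 2305 bases of exon, so its deposited FPKM is far below its level per exon.

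BEX1 was high in 1 knockout and low in the others. In total RNA the 4 control libraries held 2.6, 2.44, 3.08 and 3.49 normalized CPM, the IGF2BP1 knockout 41.2 and 56.8, the IGF2BP2 knockout 0.693 and 0.0802, and that of IGF2BP3 0.0741 and 0.183. No library of a knockout lay within the range of control. In bulk RNA, fewer cells that express a gene and less RNA per cell cannot be told apart. The IGF2BP1 knockout was 19-fold above control in total RNA, 13-fold in nuclear RNA and 10.3-fold in cytoplasmic RNA, a description of the contrast that led to this gene. Without the library that carries both labels the log2 difference was 3.99 in place of 4.25 in total RNA and 3.76 in place of 3.70 in nuclear RNA.

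**Figure D1:**
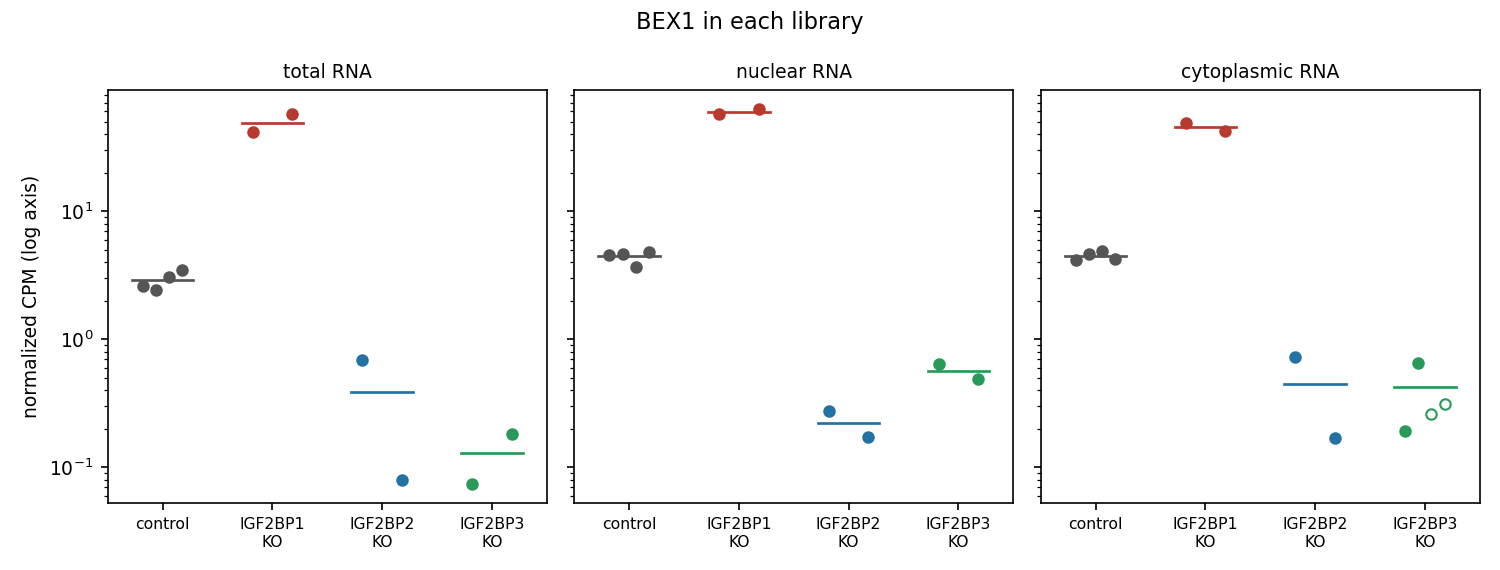
BEX1 in every library of 3 RNA kinds, in normalized CPM on a log axis; points are libraries, bars are means over batches 1 to 4, and open points are the 2 batch 5 libraries (KO, knockout). The IGF2BP1 knockout sits above control in each RNA kind, and the IGF2BP2 and IGF2BP3 knockouts sit below it.

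BEX1 fell in cells without IGF2BP2, with a log2 difference of −3.26 (SE 0.46, adjusted p = 8.4e-05) in total, −4.30 (SE 0.35, adjusted p = 2.6e-14) in nuclear and −3.30 (SE 0.31, adjusted p = 3.5e-11) in cytoplasmic RNA. In cells without IGF2BP3 the log2 difference was −4.67 (SE 0.54, adjusted p = 1.6e-05), −2.89 (SE 0.27, adjusted p = 3.3e-12) and −3.36 (SE 0.31, adjusted p = 1.6e-11) in the same order. These levels rest on few reads. In total RNA the IGF2BP2 libraries held 12 and 2 counts and the IGF2BP3 libraries 2 and 4, against 119 in the same-batch controls. From the summed counts, control was 9.84 times the IGF2BP2 knockout (95% interval 5.64 to 18.5) and 26.6 times the IGF2BP3 knockout (11.9 to 73.8). These intervals are conditional on the summed counts and cover counting error only, not the spread between libraries. All 6 calls held under every alternative processing tried, but the size moved with single libraries. In total RNA the IGF2BP2 difference was −5.38 without its replicate 1, −2.11 without its replicate 2, −4.17 without control replicate 3 and −2.54 without control replicate 4. In total RNA the IGF2BP3 difference ranged from −5.72 without control replicate 3 to −4.00 without its replicate 1. Nuclear differences ranged from −4.70 to −3.77 for IGF2BP2 (without its replicate 1 or 2) and from −3.33 to −2.47 for IGF2BP3 (without control replicate 3 or 4). Cytoplasmic differences were −4.73 and −2.62 without IGF2BP2 replicate 1 or 2, and −2.57 and −4.72 without IGF2BP3 replicate 1 or 2. Of the 50-base stretches of BEX1 transcripts, 3.19% also occur in BEX2.

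No relative matched BEX1 in cells without IGF2BP1. In the same contrast the other 9 differed from control by −0.15 to 0.53 on the log2 scale in total RNA and by −0.04 to 0.63 in nuclear RNA (described, not tested). BEX2 stood at 65 and 80 against 49.8 to 59 in control total RNA, BEX3 at 352 and 468 against 284 to 299, and TCEAL9 at 93.1 and 97 against 73.2 to 82, so these 3 lay above all control libraries. TCEAL8 lay just below them, at 87.4 and 90.2 against 95.9 to 104, and the other 5 overlapped control. Of the 9 relatives, 3 thus lay above and 1 below all control libraries in total RNA, where 16.7% of all genes tested lay above and 19.2% below. BEX1, whose counts in this contrast chose the set, is left out of that number. Without the library that carries both labels BEX2 differed by 0.39, BEX3 by 0.24 and TCEAL9 by 0.30 in total RNA, and TCEAL3, which overlapped control, by 0.87 in place of 0.41. In nuclear RNA, leaving that library out changed BEX5 from −0.04 to 0.33, TCEAL4 from 0.10 to 0.30 and TCEAL8 from 0.14 to 0.25.

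Cytoplasmic RNA of the IGF2BP1 knockout has no such library, and its 9 relatives of BEX1 were tested there. Calls were 4 higher, 2 lower and 3 in neither direction, where 22.5% of all genes tested were called higher and 21.9% lower. BEX2, a regulator of apoptosis, was at 79.3 and 76.1 against 59.3 to 66.8 in control and rose by 0.38 (SE 0.05, adjusted p = 1.9e-07). TCEAL9, a WW-domain binding protein, was at 119 and 113 against 92.2 to 105 and rose by 0.31 (SE 0.05, adjusted p = 3.8e-06). BEX3 rose by 0.20 (SE 0.04, adjusted p = 2.7e-05), from 344 to 359 in control to 399 and 392. TCEAL3 rose by 0.47 (SE 0.16, adjusted p = 0.013), a call lost without replicate 1 of the knockout (adjusted p = 0.28), without control replicate 1 (0.27) and in DESeq2 (0.088). BEX5 was lower by −0.40 (SE 0.15, adjusted p = 0.024) and TCEAL4 by −0.11 (SE 0.04, adjusted p = 0.04). Neither of these 2 calls is firm: BEX5 lost its own without either knockout library or control replicate 1 or 2 (adjusted p 0.078 to 0.26). TCEAL4 lost its own without either knockout library, control replicate 1 or 2 or any of the 4 IGF2BP3 libraries (0.053 to 0.53). Without the batch term the calls of BEX2 and BEX3 were also lost, at adjusted p of 0.061 and 0.072.

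**Figure D2:**
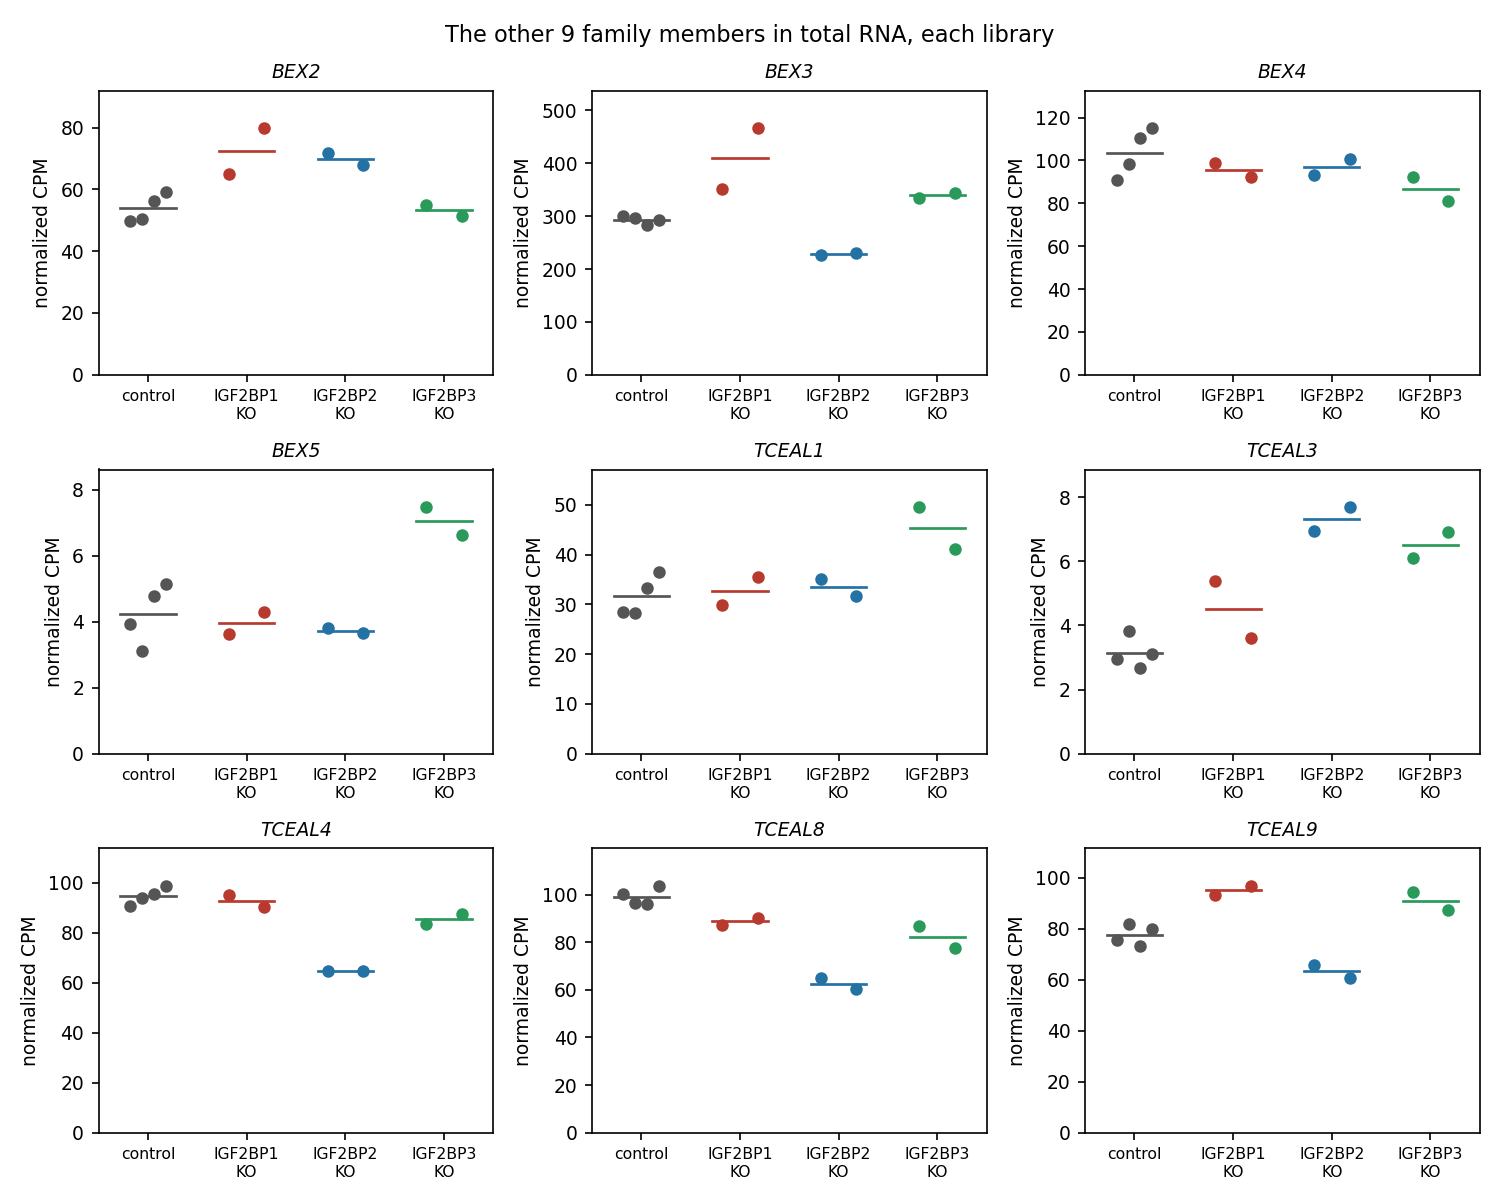
Normalized CPM of the other 9 members in total RNA, 1 panel per gene with axes from 0; points are libraries, bars are group means, KO is knockout, and each group has 4 (control) or 2 libraries. BEX5 and TCEAL1 are highest in the IGF2BP3 knockout, TCEAL4 and TCEAL8 lowest in the IGF2BP2 knockout, and TCEAL3 is high in both.

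In cells without IGF2BP2 the members moved in both directions. Total RNA had 2 of 10 called higher and 5 lower, where 23.3% of all genes were called higher and 23.7% lower. Nuclear RNA had 3 and 3 (all genes 24.8% and 24.9%), and cytoplasmic RNA 2 and 6 (30.9% and 33.2%). Cells without IGF2BP3 had 3 higher and 3 lower in total RNA (all genes 23.5% and 23.4%). Their nuclear RNA had 5 and 1 (25.1% and 25.3%), and their cytoplasmic RNA 5 and 3 (31.5% and 33.2%). The median log2 difference over the 10 members was −0.31 in total RNA of the IGF2BP2 knockout and 0.06 in that of the IGF2BP3 knockout, against 0.02 over all genes in each. With 10 members, nothing particular to the family is read from these counts. The control libraries are shared by both comparisons, so their values are set side by side.

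TCEAL3 was the member with the largest rise in these 2 knockouts. Its total RNA level was 2.96, 3.82, 2.68 and 3.12 in control, 6.93 and 7.7 without IGF2BP2 and 6.12 and 6.9 without IGF2BP3, with no overlap. The log2 difference was 1.33 (SE 0.21, adjusted p = 0.00019) in the IGF2BP2 and 1.17 (SE 0.21, adjusted p = 0.00053) in the IGF2BP3 knockout. The nuclear differences were 1.33 and 1.05, and the cytoplasmic ones 1.17 and 1.12. All 6 calls held under every alternative. The gene overlaps TCEAL1 on the same strand in the annotation, and 19.3% of its 50-base stretches also occur in TCEAL1, TCEAL5 or TCEAL6. TCEAL1 had a mean of 31.7 normalized CPM in control total RNA, against 3.15 for TCEAL3. How far shared reads enter the TCEAL3 counts was not tested, and the share of stretches sets no bound on it. TCEAL6 was at 0 in all 10 total RNA libraries.

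TCEAL8 and TCEAL4, TCEAL relatives about which little function is known, fell in the IGF2BP2 knockout in each RNA kind. TCEAL8 was at 64.8 and 60.3 in total RNA against 100, 96.6, 95.9 and 104 in control, a log2 difference of −0.68 (SE 0.10, adjusted p = 0.00012). The difference was −0.67 (SE 0.05, adjusted p = 6.8e-15) in cytoplasmic and −0.35 (SE 0.09, adjusted p = 0.0019) in nuclear RNA. TCEAL4 was at 64.9 and 64.8 in total RNA against 90.7, 93.8, 95.4 and 98.9, a difference of −0.58 (SE 0.09, adjusted p = 0.00019). Cytoplasmic RNA gave −0.36 (SE 0.04, adjusted p = 4.2e-09) and nuclear RNA −0.28 (SE 0.10, adjusted p = 0.016). The total and cytoplasmic calls of both genes held under every alternative, while the nuclear ones did not. Nuclear TCEAL8 lost its call without IGF2BP2 replicate 2 or control replicate 4 (adjusted p = 0.085 and 0.082), and nuclear TCEAL4 without IGF2BP2 replicate 2 or control replicate 3 or 4 (0.085 to 0.30).

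In the IGF2BP3 knockout TCEAL4 passed no test (log2 −0.18, 0.05 and −0.01 in total, nuclear and cytoplasmic RNA), although total RNA was called lower when either IGF2BP1 library or control replicate 1 or 2 was left out (adjusted p 0.0084 to 0.011). TCEAL8 was lower by −0.28 in total RNA (SE 0.10, adjusted p = 0.03) and by −0.15 in cytoplasmic RNA (SE 0.04, adjusted p = 0.0024). The total RNA call of TCEAL8 was lost when any of the 4 IGF2BP2 and IGF2BP3 libraries or control replicate 4 was left out (adjusted p 0.074 to 0.42), and the cytoplasmic call without IGF2BP3 replicate 1 or control replicate 3 (0.087 and 0.21). Under upper-quartile scaling cytoplasmic TCEAL8 was at 0.01, with the opposite sign.

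TCEAL1 and BEX5 rose in the IGF2BP3 knockout. TCEAL1 was at 49.6 and 41.2 in total RNA against 28.5, 28.2, 33.4 and 36.5 in control, and its log2 difference was 0.38 (SE 0.12, adjusted p = 0.019). It was 0.67 (SE 0.10, adjusted p = 2.5e-07) in nuclear and 0.56 (SE 0.06, adjusted p = 1.4e-09) in cytoplasmic RNA, and those 2 calls held under every alternative. BEX5 was at 7.49 and 6.63 against 3.92, 3.1, 4.77 and 5.14, a difference of 0.52 (SE 0.17, adjusted p = 0.023), with 0.70 (SE 0.18, adjusted p = 0.0013) in nuclear and 0.53 (SE 0.12, adjusted p = 0.00017) in cytoplasmic RNA. Neither gene overlapped control in total RNA. The total RNA calls rest on few libraries. TCEAL1 lost its own without IGF2BP3 replicate 1, control replicate 3 or either IGF2BP2 library (adjusted p 0.051 to 0.37), and BEX5 without either IGF2BP3 library or control replicate 3 or 4 (0.066 to 0.26). Nuclear BEX5 lost its call without IGF2BP3 replicate 1 (0.096). Of the 50-base stretches of TCEAL1, 14.4% also occur in TCEAL3.

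The same 2 genes did not rise in total RNA of the IGF2BP2 knockout, where TCEAL1 was at 35.1 and 31.7 (log2 −0.07, adjusted p = 0.68) and BEX5 at 3.81 and 3.65 (−0.40, adjusted p = 0.095). The latter was called lower when either IGF2BP1 library or control replicate 1 or 2 was left out (0.037 to 0.041). Cytoplasmic BEX5 was called lower there (−0.37, SE 0.13, adjusted p = 0.016), a call lost without IGF2BP2 replicate 2 or control replicate 3 (0.079 and 0.21). Nuclear TCEAL1 was called higher (0.25, SE 0.10, adjusted p = 0.039), a call lost when any IGF2BP2 or IGF2BP3 library or control replicate 3 or 4 was left out (0.057 to 0.29).

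BEX3 and TCEAL9 stood on opposite sides of control in the 2 knockouts, in total and cytoplasmic RNA. BEX3 was at 226 and 230 in total RNA of the IGF2BP2 knockout and at 335 and 345 in that of the IGF2BP3 knockout, against 299, 296, 284 and 293 in control. Control libraries thus lay between the 2 knockouts. The log2 difference was −0.34 (SE 0.10, adjusted p = 0.013) and 0.24 (SE 0.10, adjusted p = 0.067) in total RNA, −0.00 and 0.47 in nuclear RNA (adjusted p = 0.98 and 0.0002), and −0.18 and 0.34 in cytoplasmic RNA (adjusted p = 3.8e-05 and 3.1e-10). The total RNA fall was lost without either IGF2BP2 library or control replicate 3 or 4 (0.084 to 0.14), and the total RNA rise was called without IGF2BP1 replicate 1 or 2 or control replicate 1 or 2 (0.00064 to 0.00086). The nuclear and cytoplasmic rises of BEX3 held under every alternative, while its cytoplasmic fall was lost without the batch term (0.053) and with upper-quartile scaling (0.39).

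TCEAL9 was at 65.7 and 60.8 in the IGF2BP2 and 94.3 and 87.2 in the IGF2BP3 knockout, against 75.8, 82, 73.2 and 79.8 in control total RNA. In cytoplasmic RNA it differed by −0.28 (SE 0.05, adjusted p = 1.4e-05) and 0.23 (SE 0.05, adjusted p = 0.00017), the latter lost without IGF2BP3 replicate 2 or control replicate 4 (0.061 and 0.057). In total RNA it differed by −0.28 (adjusted p = 0.033) and 0.25 (0.051). The fall was lost without either IGF2BP2 or IGF2BP3 library or control replicate 4 (0.073 to 0.40), and the rise was called without IGF2BP1 replicate 1 or 2 or control replicate 1 or 2 (0.0019 to 0.0028). Nuclear TCEAL9 was called higher in the IGF2BP3 knockout (0.28, adjusted p = 0.016), a call lost without its replicate 1 or control replicate 3 (0.50 and 0.64).

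BEX2 rose in the IGF2BP2 knockout. Its cytoplasmic level was 94.3 and 94.3 against 60.2, 59.3, 66.8 and 66.8 in control (log2 0.50, SE 0.05, adjusted p = 1.1e-10), a call that held under every alternative. The nuclear difference of 0.33 (SE 0.09, adjusted p = 0.0037) was lost without control replicate 3 (0.30). The total RNA difference of 0.28 (SE 0.10, adjusted p = 0.043) was lost without either IGF2BP2 library, either IGF2BP3 library or control replicate 3 or 4 (0.093 to 0.40). In the IGF2BP3 knockout BEX2 differed by −0.11, −0.02 and 0.04 and was not called. Its cytoplasmic libraries of batches 3 and 4, at 69.7 and 67.8, lay above all control libraries, and cytoplasmic BEX2 was called higher with library totals only (0.31, adjusted p = 3.7e-06) and with upper-quartile scaling (0.21, adjusted p = 0.00053).

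BEX4 binds tubulin. Its total RNA level was 93.1 and 101 in the IGF2BP2 and 92.3 and 81.3 in the IGF2BP3 knockout, against 90.7 to 115 in control, where batches 3 and 4 lay above batches 1 and 2. It passed no test in the IGF2BP2 knockout, although total RNA was called without IGF2BP1 replicate 1 or 2 or control replicate 1 or 2 (adjusted p 0.0041 to 0.0046). In the IGF2BP3 knockout it was called lower in total (−0.38, adjusted p = 0.008) and cytoplasmic RNA (−0.19, adjusted p = 0.00039). Those calls were lost without IGF2BP3 replicate 2 or control replicate 3 or 4 (0.055 to 0.24) and without IGF2BP3 replicate 1 (0.066), and under upper-quartile scaling (0.056 and 0.75).

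**Figure D3:**
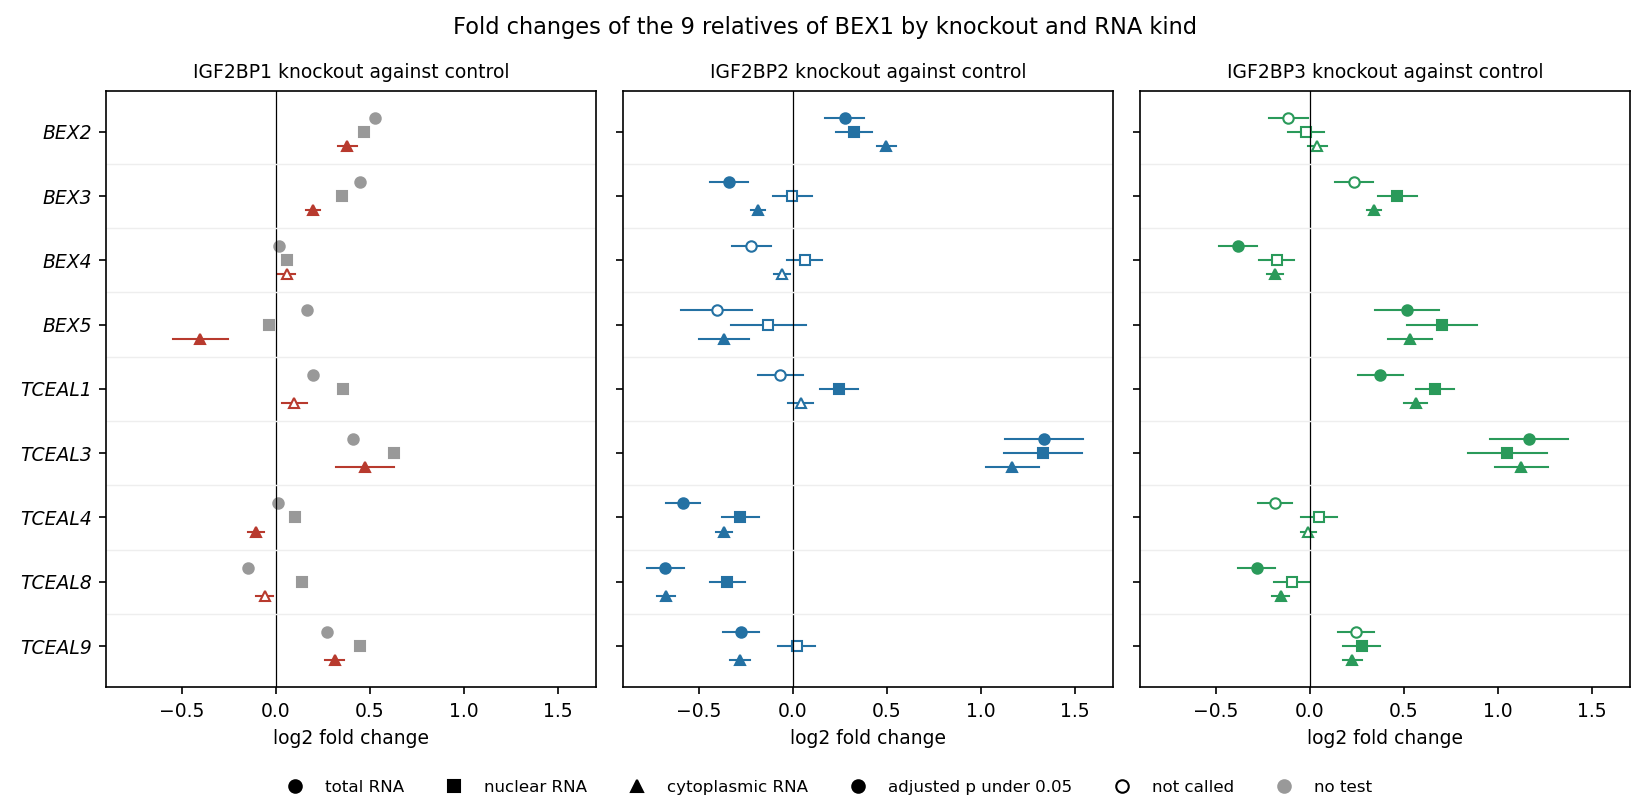
Log2 fold change of 9 members against control (horizontal axis) in each knockout, with bars of 1 SE; circles are total, squares nuclear and triangles cytoplasmic RNA, filled where the adjusted p is under 0.05, and grey points were not tested. TCEAL3 lies furthest to the right in the IGF2BP2 and IGF2BP3 panels, between 1.05 and 1.33.

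The IGF2BP3 and IGF2BP2 knockouts were also compared directly. Total RNA had 6 members higher and 1 lower in cells without IGF2BP3, where 21.8% of all genes were called higher and 21.5% lower. Nuclear RNA had 7 and 2 (24.1% of all genes each way), and cytoplasmic RNA 6 and 2 (31.3% and 31.4%). Tested genes of the whole X chromosome, members included, also had more higher than lower calls. They were 221 and 88 of 629 in total, 214 and 106 of 614 in nuclear and 275 and 127 of 602 in cytoplasmic RNA. Their median in total RNA was 0.19, against 0.40 for the members. Nothing particular to the family is read from these counts either. BEX5 differed most among the calls that held under every alternative, by 0.92 (SE 0.17, adjusted p = 0.00089) in total, 0.83 (SE 0.19, adjusted p = 0.00022) in nuclear and 0.90 (SE 0.11, adjusted p = 1.3e-08) in cytoplasmic RNA. BEX3 differed by 0.57, 0.47 and 0.53, and its 3 calls also held throughout. TCEAL1 (0.42 to 0.52), TCEAL4 (0.33 to 0.40), TCEAL8 (0.25 to 0.52) and TCEAL9 (0.25 to 0.52) were higher in each RNA kind, and BEX2 was lower (−0.46 to −0.34). TCEAL3 did not pass the test in any RNA kind (−0.28 to −0.04).

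Several of these direct calls were lost when 1 library was left out. Leaving out a knockout library leaves 1 in its group, so a lost call need not mean a changed difference. With 1 library left out, total RNA differences stayed at 0.37 to 0.43 for TCEAL4 and −0.44 to −0.34 for BEX2. Others moved more, such as nuclear TCEAL9 (0.10 to 0.40) and total RNA BEX1 (−2.56 to 0.71). In total RNA, those of BEX2 and TCEAL4 were lost when any of the 4 knockout libraries was left out (adjusted p 0.071 to 0.15 and 0.057 to 0.11). Those of TCEAL1 and TCEAL8 were lost without either IGF2BP2 library or IGF2BP3 replicate 1 (0.091 to 0.22 and 0.076 to 0.17), and that of TCEAL9 without IGF2BP2 replicate 2 (0.056). In nuclear RNA, BEX2 was lost without IGF2BP3 replicate 2 (0.17), and TCEAL4 without replicate 2 of either knockout (0.11 to 0.20). TCEAL8 was lost when any of the 4 knockout libraries or control replicate 3 or 4 was left out (0.052 to 0.29), TCEAL9 without either IGF2BP2 library, IGF2BP3 replicate 1 or control replicate 3 or 4 (0.055 to 0.60), and BEX4 when any of these 6 libraries was left out (0.051 to 0.37). Cytoplasmic BEX4 was lost without IGF2BP2 or IGF2BP3 replicate 1 (0.14 and 0.34). BEX1 was called higher in nuclear RNA of the IGF2BP3 knockout (1.42, SE 0.53, adjusted p = 0.024), a call lost without IGF2BP2 replicate 2 or IGF2BP3 replicate 1 (0.38 and 0.22), and it did not pass in total RNA (−1.41, adjusted p = 0.22). Without IGF2BP2 replicate 2 the total RNA difference of BEX1 was called (0.022).

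**Figure D4:**
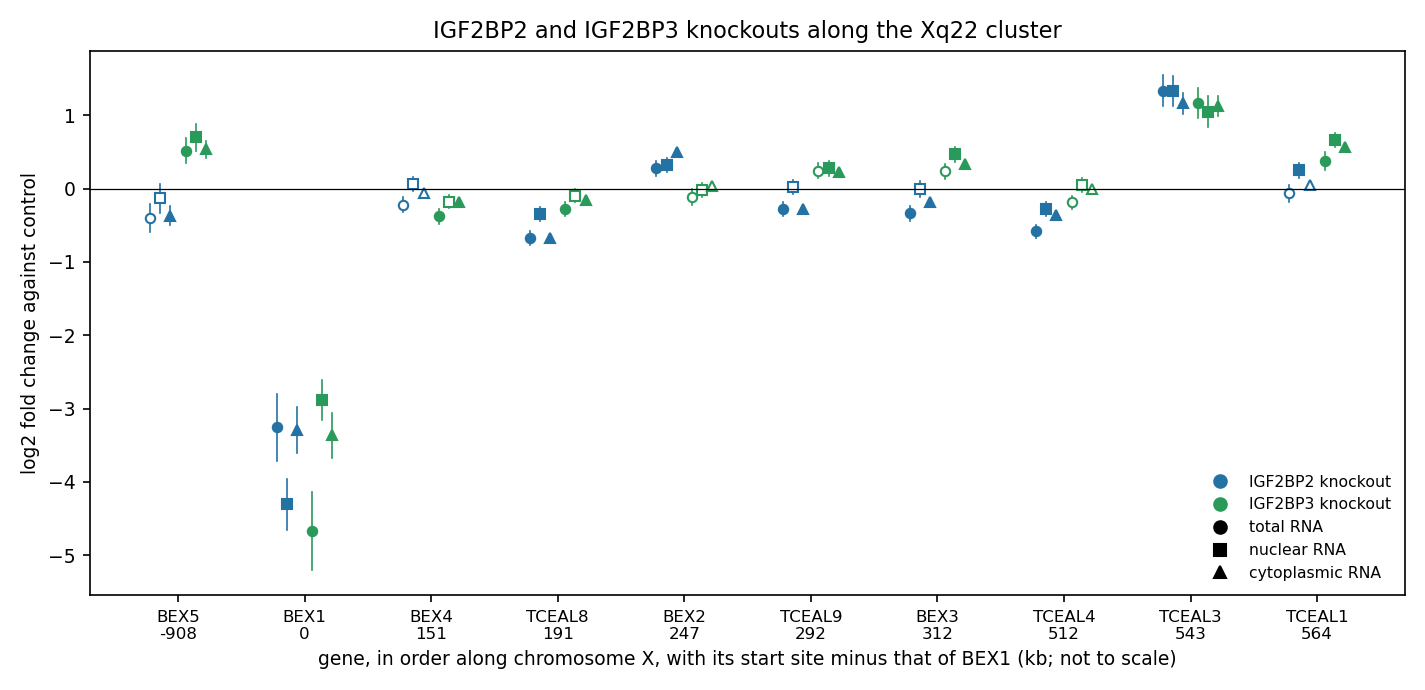
Log2 fold change against control (vertical axis, bars of 1 SE) of the 10 members in their order along chromosome X, with the distance of each start site from that of BEX1 in kb, for the IGF2BP2 (blue) and IGF2BP3 (green) knockouts and 3 RNA kinds; filled points have an adjusted p under 0.05. BEX1 lies between −4.67 and −2.89, and the other 9 between −0.68 and 1.33.

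Other methods also ended calls. In total RNA of the IGF2BP2 knockout, BEX2 lost its call with DESeq2, both limma fits and no filter (adjusted p 0.072 to 0.093), BEX3 with both limma fits and both other scalings, library totals and upper quartile (0.077 to 0.20), and TCEAL9 with all of these settings (0.060 to 0.46). In total RNA without IGF2BP3, BEX5 was lost with DESeq2 and limma on log2(FPKM + 0.1) (0.053 to 0.15), TCEAL1 with both limma fits (0.062 to 0.067), TCEAL8 with DESeq2, both limma fits and both other scalings (0.066 to 0.60), and BEX4 with both other scalings and no batch term (0.055 to 0.21). In nuclear RNA of the IGF2BP2 knockout, TCEAL4 was lost with DESeq2, both limma fits and both other scalings (0.054 to 0.13), and TCEAL1 with DESeq2, both limma fits and no filter (0.060 to 0.15). Nuclear TCEAL9 in the IGF2BP3 knockout was lost with DESeq2 and both limma fits (0.069 to 0.13).

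In cytoplasmic RNA, BEX5 lost its call with DESeq2, library totals and no batch term in the IGF2BP1 knockout (0.066 to 0.15), and with these and upper quartile in the IGF2BP2 knockout (0.14 to 0.33). TCEAL4 in the IGF2BP1 knockout lost its call with DESeq2, library totals, no filter, no batch term and batch 5 left out (0.063 to 0.57). BEX4 and TCEAL8 in the IGF2BP3 knockout were lost with no batch term (0.26 and 0.17). In the direct comparison, nuclear BEX1 was lost with DESeq2 and limma on log2(FPKM + 1) (0.059 to 0.14), and TCEAL4 with both limma fits (0.086 to 0.092). Nuclear TCEAL8 and TCEAL9 were lost with DESeq2, both limma fits and no batch term (0.055 to 0.17), nuclear BEX4 with these, no filter and upper quartile (0.052 to 0.13), and cytoplasmic BEX4 with DESeq2, library totals, no filter and no batch term (0.055 to 0.11).

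The scaling decides some of the small differences. The normalization factors were 0.936 to 0.942 in control and 1.06 to 1.09 in the IGF2BP2 and IGF2BP3 knockouts in total RNA. Scaling by library totals only, or by upper quartile, raised the median of all genes in these knockouts by 0.06 to 0.27 on the log2 scale. Among all calls of the cytoplasmic IGF2BP3 comparison 48.6% were higher, and 72.9% with library totals only (64.6% with upper quartile). In the cytoplasmic IGF2BP2 comparison the shares were 48.2%, 67.9% and 61.6%. In total RNA they were 50%, 73.2% and 64.5% for the IGF2BP3, and 49.6%, 68.9% and 60.5% for the IGF2BP2 knockout. With library totals only, cytoplasmic BEX4, TCEAL4 and TCEAL8 in the IGF2BP3 knockout and BEX3 and BEX4 in the IGF2BP2 knockout took the opposite sign, and cytoplasmic TCEAL9 in the IGF2BP2 knockout lost its call (adjusted p = 0.31). Library totals also added cytoplasmic calls of higher TCEAL1 in the IGF2BP2 knockout (0.00075, and 0.012 with upper quartile) and of higher BEX4 (0.014) and TCEAL1 (0.038) in the IGF2BP1 knockout. Both other scalings called total RNA of BEX3 and TCEAL9 higher without IGF2BP3 (0.0017 to 0.010). The directions of BEX1 and TCEAL3 in the IGF2BP2 and IGF2BP3 knockouts, of TCEAL1 and BEX5 in the IGF2BP3 knockout, and of TCEAL4 and TCEAL8 in the IGF2BP2 knockout were the same under each scaling.

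Leaving the cytoplasmic IGF2BP3 libraries of batch 5 out changed no call of a member in that knockout. Relative to the IGF2BP3 libraries of batches 3 and 4, batch 5 had lower levels of 7 members and higher levels of 3, with ratios from 0.673 (BEX1) and 0.682 (BEX5) to 1.06 (TCEAL4). With no control in batch 5, batch and library cannot be told apart there.

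In control cells 7 members were lower in nuclear than in cytoplasmic RNA, and none was higher. Among all genes, 33.3% were called lower and 32.6% higher in nuclear RNA. The nuclear to cytoplasmic log2 difference was −0.66 (SE 0.16, adjusted p = 0.00087) for TCEAL3, −0.58 (SE 0.06, adjusted p = 1.2e-08) for TCEAL4, −0.49 (SE 0.06, adjusted p = 1.5e-07) for TCEAL8, −0.45 for BEX5, −0.41 for BEX4, −0.39 for TCEAL9 and −0.24 for TCEAL1. TCEAL1 lost its call without the cytoplasmic or nuclear library of control replicate 2 (adjusted p = 0.055 and 0.065) and with library totals only (0.24). BEX1, BEX2 and BEX3 were close to even (−0.10, −0.09 and −0.10, adjusted p 0.22 to 0.54), although BEX3 was called without control replicate 1 of either fraction (0.029 and 0.035). MALAT1 and NEAT1, RNAs retained in the nucleus, summed to 259 to 354 normalized CPM in control nuclear and 132 to 159 in control cytoplasmic RNA, and in the IGF2BP2 knockout to 478 to 521 in nuclear and 588 to 604 in cytoplasmic RNA. In the IGF2BP3 knockout the sums were 892 to 1022 and 267 to 694, and in the IGF2BP1 knockout 241 to 309 and 167 to 172. In total RNA the same sum was 241 to 303 in control and 273 to 309 in the IGF2BP1 knockout. It was 711 to 730 in the IGF2BP2 and 1041 to 1277 in the IGF2BP3 knockout. GAPDH, ACTB and EEF1A1, taken as cytoplasmic markers, summed to 7094 to 8931 in control nuclear and 10870 to 11805 in control cytoplasmic RNA. Each RNA kind has its own scaling, so these sums are not on a common scale, and their part in the results on fractions was not tested.

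No member passed the test for a changed nuclear to cytoplasmic ratio in the IGF2BP2 or IGF2BP3 knockout with edgeR, against 17.5% and 10.9% of all genes called. At an unadjusted p under 0.05 there were 2 and 0 members, against 30.8% and 23.1% of all genes, and DESeq2 called 0 members in each. The smallest adjusted p was 0.068, for TCEAL8 in the IGF2BP2 knockout (0.29, SE 0.11). TCEAL9 in that knockout (0.27, adjusted p = 0.10) was called without control replicate 4 of either fraction (0.022). BEX1 was low in both fractions of both knockouts, and its ratio differed by −0.76 (SE 0.61) and 0.42 (SE 0.47).

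The 4 remaining genes of the family were low or not detected. TCEAL2, TCEAL5 and TCEAL6 did not pass the filter on low counts in any RNA kind. TCEAL7 did, at 0.122 to 0.348 normalized CPM in control total RNA and 1.39 and 1.12 in the IGF2BP2 knockout. In the fit of control nuclear and cytoplasmic libraries alone it did not pass. TCEAL7 thus entered the tests through knockout libraries, where it is higher, and its rise is given as a description. The log2 difference in the IGF2BP2 knockout was 2.36 (SE 0.52) in total, 3.10 (SE 0.48) in nuclear and 2.61 (SE 0.42) in cytoplasmic RNA. In total RNA that rests on 52 counts against 9 in the same-batch controls. The ratio of these was 4.99 (95% interval 2.44 to 11.5, counting error only). In the IGF2BP3 knockout TCEAL7 was at 0.519 and 0.457 in total RNA and was not called (0.99, adjusted p = 0.20).

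Neighbouring genes other than the 10 members were read from lists. Among GASP and ARMCX genes, armadillo-repeat relatives on Xq22, 8 of 9 in the tables were tested in total RNA. In the IGF2BP2 knockout 3 rose and 1 fell, with a median log2 difference of 0.29, and in the IGF2BP3 knockout 5 rose and 1 fell, with a median of 0.51. ARMCX3, a mitochondrial outer membrane protein, rose by 1.20 (SE 0.09, adjusted p = 6.9e-07) and 0.74 (SE 0.09, adjusted p = 2.9e-05). ARMCX5 differed by −1.09 (SE 0.12, adjusted p = 1.4e-05) in the IGF2BP2 knockout. Of 20 other Xq22 genes tested, 9 rose and 1 fell without IGF2BP2, and 12 rose and 2 fell without IGF2BP3 (medians 0.17 and 0.51). RAB9B, a small GTPase of endosomal transport, rose by 1.84 (SE 0.15, adjusted p = 9.3e-07) in the latter. The 45 tested genes within 1 Mb of the outermost members gave 13 higher and 2 lower in total RNA without IGF2BP2, and 17 and 3 without IGF2BP3, where 23.3% to 23.7% of all genes were called each way. Only the 10 members were left out of these 45, so TCEAL7 is among them, and they can overlap the lists above. In nuclear RNA the 41 tested gave 10 higher and 11 lower (median −0.09) and 13 and 8 (median 0.14), so the excess of higher calls was not seen there for IGF2BP2. Of all genes, 24.8% to 25.3% were called each way in nuclear RNA. In cytoplasmic RNA the 37 tested gave 18 and 7, and 21 and 3, where 30.9% to 33.2% of all genes were called each way. The medians over 629 tested genes of the whole X chromosome were −0.05 and 0.08.

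The p75 neurotrophin receptor list held 18 genes, 15 of them tested in total RNA. It gave 5 higher and 4 lower in the IGF2BP2 and 7 higher and 4 lower in the IGF2BP3 knockout. Of all genes, 23.3% to 23.7% were called each way in these 2 comparisons. The medians of the p75 list were −0.01 and −0.05, against 0.02 over all genes in each. NGFR, the receptor itself, rose by 3.00 (SE 0.23, adjusted p = 6.6e-07) in the IGF2BP3 knockout from a mean of 1.41 normalized CPM in control. AIFM1, a mitochondrial death effector, differed by −1.23 (SE 0.11, adjusted p = 2.6e-06) in the IGF2BP2 knockout, and BCL2, an inhibitor of apoptosis, rose there by 1.93 (SE 0.16, adjusted p = 1.1e-06). The 10 TFIIS and elongation factor genes gave 4 higher and 2 lower, and 1 higher and 3 lower, beside the same shares of all genes. TCEA2, a TFIIS paralogue, rose by 0.62 (SE 0.10, adjusted p = 0.00033) in the IGF2BP2 and by 0.59 (SE 0.10, adjusted p = 0.00043) in the IGF2BP3 knockout. The medians of this list were −0.11 and −0.18.

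By likeness over 12 group means (4 genotypes in 3 RNA kinds, centred within each kind, 15136 genes that averaged 1 CPM or more), the genes closest to BEX1 included FDPS, MVD, ADI1 and PTMAP4, with Pearson's r from 0.991 down to 0.982. FDPS, an enzyme that makes farnesyl pyrophosphate, was at 161 normalized CPM in control total RNA, 250.4 in the IGF2BP1 knockout and 117 and 121 in the IGF2BP2 and IGF2BP3 knockouts. None of these 4 is on the X chromosome. The other members correlated with BEX1 from −0.59 (TCEAL3) to 0.52 (BEX3). For TCEAL3 the closest were SELENOP, SSBP2, GPRC5A, MOAP1 and MAGED2 (r 0.988 to 0.991), of which MAGED2 is on the X chromosome. BEX1 stands furthest from the other genotypes in the IGF2BP1 knockout, whose counts chose the set, and those means enter its r. Its ranking therefore favours genes that are high in that knockout. The 12 means share controls and clones, and the total and nuclear means of the IGF2BP1 knockout both hold the library with both labels, so r is a description.

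Summed over the 10 members, the family made up 764 ± 23.7 normalized CPM in control total RNA (SD, n = 4), 945 ± 103 in the IGF2BP1, 630 ± 3.47 in the IGF2BP2 and 797 ± 18.4 in the IGF2BP3 knockout (n = 2 each). BEX3 gave 35.7% to 46% of the sum in the total RNA libraries, so the sum follows BEX3 more than BEX1.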

How the data were processed

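Read counts per gene were deposited by the authors as 3 tables, for total, nuclear and cytoplasmic RNA, next to tables of FPKM. The submitters' processing notes name STAR, featureCounts, DESeq2 1.44.0 and GRCh38, while annotation, filters and the strand setting are not given in the sources used here. The deposited FPKM values entered only limma 3.58.1 on log2(FPKM + 1) or log2(FPKM + 0.1) as alternatives. Counts were tested with edgeR 4.0.16 (R 4.3.3) by the quasi-likelihood test: TMM scaling, filterByExpr, batch and genotype as terms, all libraries of an RNA kind in 1 fit, and Benjamini-Hochberg adjustment over all 18745, 18732 and 18212 genes tested. The nuclear to cytoplasmic ratio was an interaction in 1 fit over both fractions, without batch 5. SE is the absolute log2 difference over the square root of F. Totals were 13689067 to 26119480 counts, and all 10 members passed the filter in each RNA kind. The scripts were tested on simulated counts. Alternatives were DESeq2 1.42.0, RLE and upper-quartile scaling, no filter, no batch term, only the knockout's batches, and each library left out; library totals only, batch 5 left out and exchanged batch numbers were added after seeing the data.

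The members and gene lists were chosen with earlier results of these data known. Named list genes were the up to 3 called genes with the largest change per list and comparison, of which some are given; NGFR, BCL2 and AIFM1 come from that rule. The labels state shared batches, and the correlation of same-batch deviations between knockout and control was −0.11 to 0.02. A gene among those most like BEX1 is not reported here.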

Additional observations from a re-analysis of the deposited data

Results flagged for a closer look

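In nuclear RNA of control cells, TCEAL9 stood at 88.4 normalized CPM in replicate 4, against 74.3 to 75.5 in the other replicates. That gap is larger than Dixon's 95% critical value for a group of 4. Chance gives such a gap in about 1 of 20 groups, and 40 groups were tested. With that library left out, TCEAL9 had a nuclear to cytoplasmic ratio in the IGF2BP2 knockout that differed from control by 0.54 on the log2 scale (edgeR adjusted p = 0.022), against 0.27 (0.10) with it.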

How the results depend on the processing

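Over 129 tested member differences and 2668 alternatives, 2427 stayed on the same side of the threshold, 190 lost a call, 44 gained 1 and 7 reversed, meaning a changed sign with a call in at least 1 of the fits. Values near 0 that were never called changed sign among the 2427, such as total RNA BEX2 without IGF2BP3 (−0.20 to 0.10) and cytoplasmic BEX1 between the IGF2BP3 and IGF2BP2 knockouts (−1.41 to 1.36). Causes were not tested. The depth limits BEX1, with 2 to 19 counts a library in the IGF2BP2 and IGF2BP3 knockouts. With library totals only (chosen after seeing the data), cytoplasmic RNA reversed for BEX3 (0.038) and BEX4 (0.16) in the IGF2BP2 and for BEX4 (0.081), TCEAL4 (0.26) and TCEAL8 (0.11) in the IGF2BP3 knockout. With upper quartile, TCEAL4 (0.16) and TCEAL8 (0.014) reversed in the latter.

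The number of members called higher in total RNA of the IGF2BP2 knockout was 1 in place of 2 with DESeq2, both limma fits and no filter, and the number lower was 3 in place of 5 with library totals, both limma fits and upper quartile. For the IGF2BP3 knockout in total RNA, 5 in place of 3 were higher with library totals, upper quartile and only its batches, 1 with limma on log2(FPKM + 0.1), and 1 in place of 3 was lower with library totals and upper quartile. Between the IGF2BP3 and IGF2BP2 knockouts in nuclear RNA, 4 in place of 7 were higher with DESeq2 and with limma on log2(FPKM + 0.1), and 3 with log2(FPKM + 1). There, 1 in place of 2 was lower with DESeq2, limma on log2(FPKM + 0.1), no filter, no batch term and upper quartile. In cytoplasmic RNA the same comparison had 1 in place of 2 lower with DESeq2, library totals, no filter and no batch term. In cytoplasmic RNA of the IGF2BP1 knockout, 2 in place of 4 were higher without the replicate block (no batch term) and 6 with library totals, and in place of 2 lower there were 0 with DESeq2, library totals and no batch term and 1 with no filter and with batch 5 left out. In that of the IGF2BP2 knockout, library totals gave 4 in place of 2 higher and 3 in place of 6 lower. In that of the IGF2BP3 knockout, library totals gave 8 in place of 5 higher, and library totals, no batch term and upper quartile gave 1 in place of 3 lower.

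Leaving out 1 library at a time gave ranges of higher and lower calls. For the IGF2BP2 knockout they were 1 to 2 and 3 to 7 in total, 1 to 3 and 1 to 3 in nuclear, and 2 to 2 and 5 to 6 in cytoplasmic RNA. For the IGF2BP3 knockout they were 1 to 5 and 1 to 4, 3 to 5 and 1 to 1, and 4 to 5 and 1 to 3. Between these knockouts they were 2 to 6 and 0 to 2, 3 to 7 and 0 to 2, and 6 to 6 and 1 to 2. They were 3 to 4 and 0 to 2 in cytoplasmic RNA of the IGF2BP1 knockout, 0 to 1 and 0 to 0 for the ratio in the IGF2BP2 knockout, and 0 to 0 and 6 to 8 for nuclear against cytoplasmic control RNA. Exchanging the batch numbers was chosen after seeing a negative correlation of same-batch deviations. It moved the calls over all genes from 8791 to 8862 in total RNA of the IGF2BP3 knockout. There, 7 members in place of 6 were called, with TCEAL9 added. In nuclear RNA of the IGF2BP1 knockout the calls over all genes moved from 4811 to 5097.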
